A study of Rattus norvegicus with 10 samples.

Results

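Normally developed testes of obese Zucker rats were compared with normally developed testes of lean Zucker rats, using the 4 arrays of the first group and the 2 of the second by their titles, 6 of the 10 arrays in the study. The obese group carried the phenotype label Obese and the model label Zucker (fa/fa), and the lean group carried the phenotype label Lean with the same model label. All rats were sexually mature and 14 weeks old, no treatment was recorded, and the remaining 4 arrays held under-developed testes of obese rats. The protocol text of the lean samples also speaks of obese fa/fa animals, so the leptin receptor genotype of the lean rats is not settled by the labels. Titles number the samples as biological replicates, but nothing in the labels ties a testis to an animal, so a p-value here reflects how these samples scatter, which may be technical in part.

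In Zucker rats the fatty allele lies in the gene of the leptin receptor, through which the fat hormone leptin signals to the brain and other tissues, and fa/fa animals overeat, become obese and resist insulin. The testis holds germ cells that pass from spermatogonia through meiosis to spermatids, Sertoli cells that nurse them inside the tubules, contractile peritubular myoid cells around the tubules, and Leydig cells and macrophages between them. Leydig cells make testosterone from cholesterol under luteinizing hormone. In whole-tissue RNA, fewer cells of a type and less RNA per cell cannot be told apart.

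A single gene passed the test between the normal testes of obese and lean rats. Each array gave a log2 expression value per probe set, and 18166 named genes were tested with limma on these 6 arrays alone. The SD of a gene had a median of 0.10 log2 in the obese group and 0.08 in the lean group. At a Benjamini-Hochberg adjusted p under 0.05, limma called 1 of 18166 genes (0.0055%), Kremen1, which was higher in the obese rats. No gene was called lower, and the second smallest adjusted p was 0.744. Before adjustment, 1141 genes (6.28%) had a limma p under 0.05, with 577 higher (3.18%) and 564 lower (3.1%), against 908.3 expected by chance. All 4 obese values lay above both lean values for 1399 genes (7.7%) and below both for 1320 (7.27%). Every share of list members without overlap given below is to be read against these shares. A difference of at least 2-fold was seen for 2 genes (0.011%), Kremen1 and Testin, both higher. The 95% confidence interval of a gene's difference reached a median of 0.21 log2 to either side. With 2 lean arrays, a difference that missed the threshold is not shown to be absent. Germ cell, Sertoli and Leydig genes were all read on the arrays: the sperm protamine Prm1 lay between 12.35 and 12.45, the Leydig hormone Insl3 between 9.67 and 10.19, and the Sertoli lipid-binding gene Fabp3 between 9.05 and 9.92 log2.

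Kremen1 encodes a transmembrane receptor for the secreted Dickkopf proteins, with which it removes the Wnt co-receptors Lrp5 and Lrp6 from the cell surface and so dampens Wnt signalling. Its log2 values in the normal testes of obese rats were 9.41, 9.35, 9.98 and 10.16. In those of lean rats they were 6.57 and 6.36. The lowest obese value thus lay 2.78 log2 above the highest lean value, and replicates 3 and 4 were the highest of the obese group. The means were 9.72 ± 0.41 (SD, n = 4) and 6.46 ± 0.15 (SD, n = 2). Kremen1 rose by 3.26 ± 0.23 log2 (SE; 95% confidence interval 2.73 to 3.79), a 9.59-fold difference (6.64 to 13.8), with a limma p of 5.97e-07 and an adjusted p of 0.0108. An exact permutation test of this gene alone, over the 15 ways of choosing 4 of 6 arrays, gave a 1-sided p of 0.0667. The two-sided p, taken as 2 times that value, was 0.133. These are the smallest values this test can give, and any gene with all obese values above both lean values gets them. The under-developed testes of obese rats ran from below both lean values to just below the lowest normal obese value, with 6.10, 8.17, 6.85 and 9.19 in replicates 1 to 4. High Kremen1 was therefore measured in all 4 normal testes of obese rats, but not in all testes of obese rats. The under-developed testes were unlike each other, with mean correlations to the normal arrays of 0.856, 0.946, 0.731 and 0.995. Their means of 37 spermatid genes stood −2.19, −0.79, −4.01 and −0.06 log2 from the lean mean, so that replicate 4 read much like a normal testis. The part of lost germ cell RNA in the lower Kremen1 values was not tested.

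The Kremen1 difference did not pass in all of the settings tried. Its value lay between 2.70 and 3.39 log2 over the 18 alternative settings, and the gene passed in 12 of them. These 12 include a replicate block, whose difference rests on obese and lean replicates 1 and 2 alone. Settings that change only the spread or the genes tested cannot move a difference read by 1 probe set. The difference was 3.26 log2 in those by construction. In limma, its adjusted p was 0.0887 without obese replicate 3, 0.267 without lean replicate 1 and 0.187 without lean replicate 2. With 1 lean array left, the spread comes from the obese arrays alone and the lone array is assumed to vary like them. It was 0.126 with trend and robust moderation, 0.116 when every probe set, named or not, was tested, and 1.00 when the 4 under-developed arrays shared the estimate of the spread. A single probe set read the gene, so no second probe set of Kremen1 could be set beside it.

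**Figure D1:**
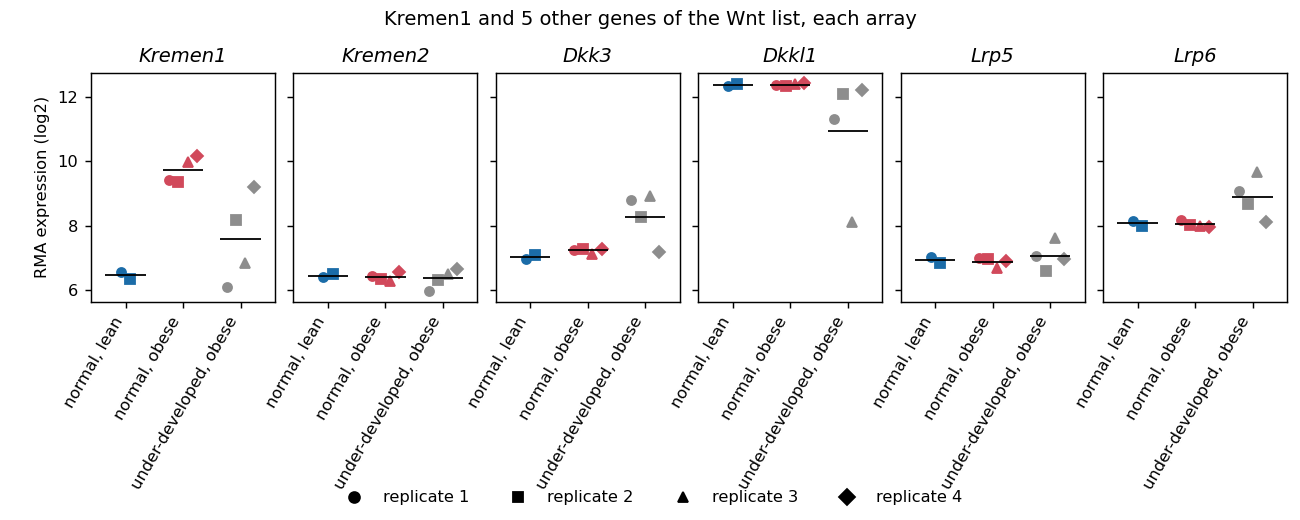
Log2 expression (vertical axis) of Kremen1, Kremen2, Dkk3, Dkkl1, Lrp5 and Lrp6 in each of the 10 arrays by group (horizontal axis), with a marker per replicate and a black bar at the group mean. Kremen1 lies between 9.35 and 10.16 in the normal testes of obese rats and at 6.57 and 6.36 in those of lean rats, whereas no other gene shown differs by more than 0.21 log2 between these groups.

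The genes next to Kremen1 did not share its difference. Among the 5 measured genes on either side of it in the RefSeq order, the difference between obese and lean testes ran from −0.16 log2 (Ewsr1) to 0.17 log2 (Xbp1). No neighbour reached an unadjusted p under 0.05 in limma, and the smallest adjusted p was 0.776. Without overlap, 3 of the 10 lay below the lean values and 0 above, against 7.27% and 7.7% of all genes. The leptin receptor gene Lepr was not analysed here. Around its position, 10 genes on either side differed by −0.16 log2 (Slc35d1) to 0.19 log2 (Raver2), none with an unadjusted limma p under 0.05 and none with separate groups.

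Besides Kremen1, no gene of the Wnt pathway passed. Of 67 measured members of a list of Wnt ligands, receptors, inhibitors and targets, 1 was called, Kremen1 itself. The median difference of the list was 0.00 log2, against 0.01 over all genes. The paralog Kremen2 differed by −0.04 ± 0.09 log2 (SE). The Dickkopf ligands differed by −0.05 ± 0.08 (Dkk1), 0.12 ± 0.12 (Dkk2) and 0.03 ± 0.11 log2 (Dkk4). Dkk3, a relative of the Dickkopf inhibitors, read 7.24, 7.28, 7.13 and 7.27 in the obese testes and 6.97 and 7.07 in the lean testes, a difference of 0.21 ± 0.08 log2 that did not pass (limma adjusted p = 0.776). Dkkl1, a Dickkopf-like gene of the sperm acrosome, differed by 0.01 ± 0.07 log2, and the co-receptors Lrp5 and Lrp6 by −0.05 ± 0.11 and −0.03 ± 0.09 log2. For Kremen2, Dkk1, Dkk4, Dkkl1, Lrp5 and Lrp6 the sign turned under at least 1 alternative setting. Wls, which carries Wnt ligands to the cell surface, was 0.24 ± 0.08 log2 higher, and the secreted Wnt inhibitor Sfrp5 was 0.30 ± 0.07 log2 lower, with 6.84, 6.71, 6.67 and 6.75 against 7.05 and 7.03. The ligand Wnt9b differed by −0.28 ± 0.10 log2. The secreted inhibitor Sfrp4 had the largest difference of the list after Kremen1, at −0.39 ± 0.19 log2, with 5.83, 5.44, 5.14 and 5.82 against 6.02 and 5.88. Its relative Sfrp1 differed by 0.33 ± 0.26 log2 with overlap. None of these passed, and the smallest adjusted p among the other members was 0.744. In this list 13.4% of members lay above and 16.4% below the lean values without overlap, against 7.7% and 7.27% of all genes.

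**Figure D2:**
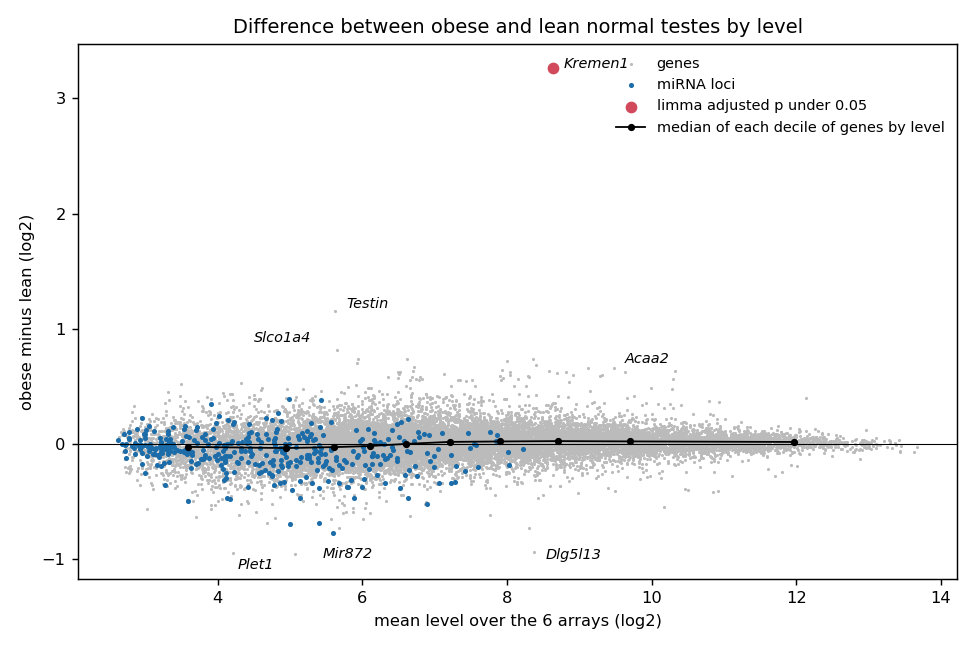
Difference of the mean log2 value in obese from that in lean normal testes (vertical axis) against the mean log2 level (horizontal axis) for the 18166 genes, with microRNA loci in blue, Kremen1 in red and a line through the median of each decile of level. Kremen1 lies alone at 3.26 log2, and the line runs from −0.03 in the dimmest decile to 0.02 in the brightest.

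Differences by level were small but not even. The median difference was −0.03, −0.04, −0.03 and −0.02 log2 in the 4 dimmest deciles of genes and 0.02 log2 in each of the 5 brightest. The lower quartile of the array values moved with this, at 4.81 to 4.88 log2 in the obese arrays and 4.93 to 4.94 in the lean arrays. The part of this shift in the results was not tested.

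Among genes higher in the obese testes without overlap, the largest differences after Kremen1 belonged to Testin, Slco1a4, Krtap4-6, Timp1, Omd, Acaa2 and Marchf8. None of them passed the adjusted threshold. Unnamed loci, microRNA, olfactory and vomeronasal receptor genes were left out of this ranking. Testin, a secreted protease-like protein of Sertoli cells, read 6.44, 6.79, 5.68 and 5.14 in the obese testes and 5.02 and 4.71 in the lean testes. The lean values lay near the lower quartile of the lean arrays, 4.93 to 4.94 log2. The lowest obese value was 0.13 log2 above the highest lean value, and the difference of 1.15 ± 0.40 log2 had an adjusted p of 0.774 in limma. In the under-developed testes Testin read 12.09, 11.43, 12.21 and 5.53. The organic anion transporter Slco1a4 read 5.84, 6.41, 5.54 and 5.89 against 5.18 and 5.03, a difference of 0.82 ± 0.20 log2 (adjusted p = 0.744). Timp1, an inhibitor of matrix metalloproteinases, read 8.62, 9.05, 8.57 and 8.29 against 8.25 and 7.64. Its groups were only 0.04 log2 apart, and the difference was 0.69 ± 0.22 log2 (adjusted p = 0.767). Acaa2, a mitochondrial enzyme of fatty acid oxidation, read 9.71, 9.84, 9.69 and 9.57 against 9.31 and 8.78, a difference of 0.66 ± 0.14 log2 (adjusted p = 0.744). Testin, Slco1a4, Timp1 and Acaa2 read higher still in under-developed replicates 1 to 3 and between 5.43 and 9.32 in replicate 4. Omd, a matrix proteoglycan, was 0.66 ± 0.15 log2 higher and Krtap4-6, a keratin-associated protein gene, 0.74 ± 0.14. Marchf8, a membrane ubiquitin ligase, split the obese group, with 8.77 and 8.58 in replicates 1 and 4 but 7.72 and 7.52 in replicates 2 and 3, against 7.52 and 7.49.

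The smallest p-values among higher genes, after Kremen1, belonged to genes with modest but tight differences. Lck, a tyrosine kinase of T cells, read 6.89, 7.01, 7.07 and 7.11 against 6.51 and 6.40 in the lean testes. Its difference of 0.56 ± 0.08 log2 had a limma p of 0.000151 and an adjusted p of 0.744. The list of 17 lymphocyte genes that holds it had 8 differences above 0 and 9 below, with a median of −0.03 log2. Fignl1, a partner of the recombination machinery in meiosis, read 7.38, 7.38, 7.36 and 7.40 against 6.89 and 7.03, so that the obese values spanned 0.04 log2 and the difference was 0.42 ± 0.07 log2. Tnfrsf1a, the first receptor of tumour necrosis factor, was 0.50 ± 0.09 log2 higher and the beta-defensin gene Defb14 0.54 ± 0.09.

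Among genes lower in the obese testes without overlap, none passed. Apart from unnamed loci, microRNA, olfactory and vomeronasal receptor genes, the largest differences were those of Plet1, Dlg5l13, Klra17, Myl1, Gnrh1, Slc25a52, Slc38a3 and Ly49si3. Plet1, a surface protein of epithelial progenitors, read 4.64, 4.18, 5.15 and 5.04 in the obese testes and 5.97 and 5.45 in the lean testes, a difference of −0.96 ± 0.27 log2 (limma adjusted p = 0.744). Its obese values lay around the lower quartile of the obese arrays, 4.81 to 4.88 log2, so the gene was dim there. Dlg5l13, named for its likeness to the scaffold gene Dlg5, read 8.39, 7.97, 8.12 and 7.80 against 8.87 and 9.14, a difference of −0.94 ± 0.16 log2 (adjusted p = 0.744). Gnrh1, the precursor of gonadotrophin-releasing hormone, read 5.55, 5.53, 6.13 and 5.99 against 6.47 and 6.43. That difference of −0.65 ± 0.17 log2 stood beside 0.55 ± 0.17 log2 higher for its receptor Gnrhr, with 7.69, 7.62, 7.50 and 7.23 against 7.23 and 6.68 (adjusted p = 0.744 and 0.754 in limma). For Gnrhr the lowest obese and the highest lean value were the same to 2 decimals. The glutamine transporter Slc38a3 read 7.47, 7.10, 7.81 and 7.85 against 8.22 and 8.13, a difference of −0.62 ± 0.20 log2. Klra17 and Ly49si3 differed by −0.73 ± 0.17 and −0.60 ± 0.11 log2. They belong to the Ly49 family of natural killer cell receptors, whose near-identical copies share probes, so their values are uncertain. Of the lower genes named by p-value, Slfn2, a Schlafen gene of immune cells, had the smallest, with 5.49, 5.47, 5.46 and 5.44 against 5.89 and 5.87. Its difference was −0.41 ± 0.06 log2 (limma adjusted p = 0.744).

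**Figure D3:**
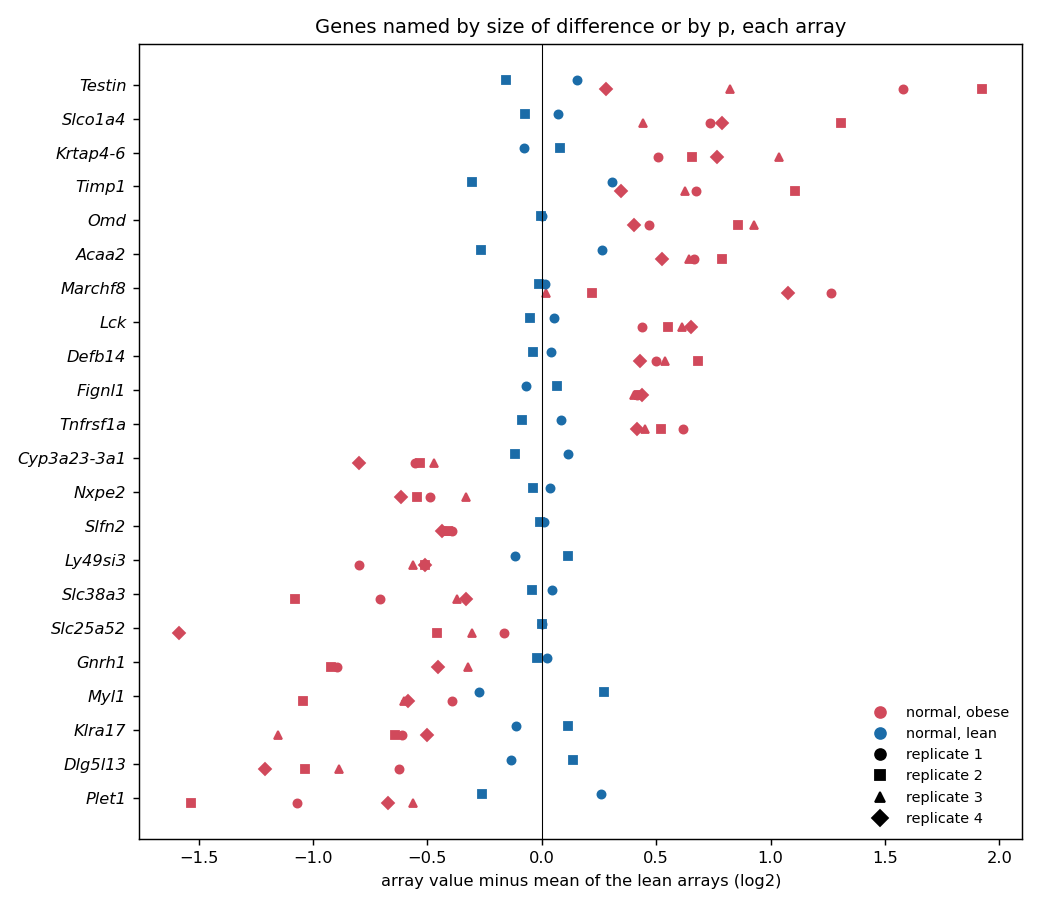
Log2 value of each normal array minus the mean of the lean arrays (horizontal axis) for 22 genes other than Kremen1 named for the size or the p-value of their difference (vertical axis), with obese arrays in red and lean arrays in blue. The highest point is an obese array at 1.93 above the lean mean for Testin, and the groups do not overlap for any gene shown.

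None of the 28 Leydig cell genes measured passed the adjusted threshold, while 23 differences lay above 0 and 5 below. At an unadjusted limma p under 0.05, 6 were higher and 1 lower. Without overlap, 6 members lay above the lean values (21.4%, against 7.7% of all genes) and 1 below (3.57%, against 7.27%). The median difference was 0.05 log2, against 0.01 over all genes, and ran from 0.01 without obese replicate 2 to 0.11 without obese replicate 1. Insl3, the peptide hormone of Leydig cells, read from 9.87 to 10.19 in the obese testes and 9.67 and 9.69 in the lean testes. The groups were separate and the difference was 0.36 ± 0.10 log2 (limma adjusted p = 0.744). Hsd17b3, which makes testosterone from androstenedione, read 6.47, 6.37, 6.31 and 6.41 against 6.13 and 5.73, a difference of 0.46 ± 0.11 log2 (adjusted p = 0.744). Tspo, a mitochondrial outer membrane protein abundant in steroid-making cells, was 0.39 ± 0.12 log2 higher. Akr1c14, a hydroxysteroid dehydrogenase, was 0.74 ± 0.28 log2 higher, but obese replicate 4 at 6.18 lay below lean replicate 1 at 6.30. Hsd11b1, which interconverts cortisone-type and cortisol-type steroids, differed by 0.48 ± 0.18 and the growth factor receptor gene Pdgfra by 0.58 ± 0.25 log2, both with overlap.

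Genes of the early steps of steroid synthesis did not pass, and of those named here only Hsd3b2 had separate groups. Star, which delivers cholesterol to the inner mitochondrial membrane, differed by −0.21 ± 0.21 log2, which turned to 0.11 without lean replicate 1, and Cyp11a1, which cleaves its side chain, by −0.31 ± 0.21 log2. Lhcgr, the receptor of luteinizing hormone, read 8.32, 8.13, 7.88 and 7.77 against 8.51 and 8.24, a difference of −0.35 ± 0.16 log2 (limma adjusted p = 0.776). Hsd3b2, a 3-beta-hydroxysteroid dehydrogenase gene, differed by −0.28 ± 0.09 log2. It has close paralogs, so its value is uncertain. Cyp17a1, which makes the androgen precursors, varied more within the obese group than it differed between the groups. It read 7.49, 9.07, 8.81 and 6.26 in the obese testes and 8.07 and 7.42 in the lean testes, with an SD of 1.30 log2 in the obese group and a difference of 0.16 ± 0.71 log2. Its sign turned when obese replicate 2, obese replicate 3 or lean replicate 2 was left out. Of the receptors for sex hormones and gonadotrophins, 14 were measured and none passed. The growth hormone receptor Ghr was 0.29 ± 0.11 log2 higher and the vitamin D receptor Vdr 0.26 ± 0.08 log2 lower in the obese testes, with 6.06, 5.88, 5.98 and 5.88 against 6.21 and 6.21.

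The later germ cell lists were level between the groups in their medians. The median difference was 0.01 log2 for 38 genes of spermatocytes and meiosis, −0.01 for 37 genes of the spermatid acrosome and chromatin, and 0.00 for 35 genes of the sperm tail, and none of these genes passed. Prm1, which packs sperm DNA, read 12.35, 12.35, 12.43 and 12.38 in the obese testes and 12.40 and 12.45 in the lean testes. Sycp3, of the chromosome axis in meiosis, differed by 0.12 ± 0.10 log2. The largest differences were those of Cfap65, a gene of the sperm flagellum, at −0.38 ± 0.12 log2, the sperm calcium channel gene Catsper4 at −0.33 ± 0.15, Spata16, needed for acrosome formation, at 0.24 ± 0.10, and Rec114, a partner of meiotic DNA breakage, at 0.24 ± 0.10. Cfap65 reached at most 9.43 in the obese testes and read 9.65 in both lean testes (limma adjusted p = 0.754). Of the sperm tail genes, 4 lay below the lean values without overlap (11.4%, against 7.27% of all genes) and 1 above (2.86%, against 7.7%). The spermatid list had 4 below (10.8%) and 2 above (5.41%). In the brightest decile of level, which holds the median levels of both lists, 3.36% of genes lay below and 8.04% above. In spermatogonia, 23 genes had a median difference of 0.09 log2, and 3 lay above the lean values (13%) and 0 below. The deubiquitinase gene Uchl1, a marker of spermatogonia, was 0.28 ± 0.09 log2 higher.

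Sertoli cell genes had a median difference of 0.04 log2 over 29 genes, with 24 differences above 0 and 5 below. That median was 0.00 without lean replicate 2 and 0.10 without lean replicate 1. None passed, 5 lay above the lean values (17.2%, against 7.7% of all genes) and 2 below (6.9%, against 7.27%). Fabp3 had the smallest p-value, with 9.90, 9.92, 9.83 and 9.69 against 9.37 and 9.05 and a difference of 0.63 ± 0.11 log2 (limma adjusted p = 0.744). It also stands in the list of fatty acid genes. The intermediate filament gene Vim differed by 0.26 ± 0.13 log2, with overlap. Of 26 genes of the junctions that form the blood-testis barrier, 2 lay above the lean values (7.69%) and none below. The integrin gene Itgb1 was 0.35 ± 0.13 log2 higher at an unadjusted p of 0.0274, with obese replicate 4 at 8.54 below lean replicate 1 at 8.60.

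Smooth muscle and matrix genes read higher in obese replicates 1 and 2 than in the other arrays. None of the 15 genes of peritubular myoid and smooth muscle cells passed. Of these, 4 lay above the lean values (26.7%, against 7.7% of all genes) and none below (against 7.27%). Their median difference was 0.13 log2, or 0.07 without obese replicate 1 and 0.25 without lean replicate 1. The mean of the list stood 0.40, 0.32, 0.11 and 0.09 log2 above the lean mean in obese replicates 1 to 4, and the lean arrays lay 0.01 to either side. The actin-binding protein gene Cald1 read 9.06, 9.15, 8.62 and 8.35 against 8.21 and 8.12, a difference of 0.63 ± 0.21 log2 (limma adjusted p = 0.77). Tagln, another actin-binding protein of smooth muscle, read 7.80, 7.41 and 7.26 in obese replicates 2 to 4 and more in replicate 1, against 7.01 and 7.13 (0.55 ± 0.20 log2). The smooth muscle actin gene Actg2 ran the other way within the group, with 6.37, 6.63, 6.97 and 6.91 against 5.92 and 6.30 (0.61 ± 0.18 log2).

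Of 39 genes of fibroblasts and extracellular matrix, 5 lay above the lean values (12.8%, against 7.7% of all genes) and 1 below (2.56%, against 7.27%). None passed the threshold. The median difference was 0.09 log2, from 0.05 without lean replicate 2 to 0.15 without lean replicate 1. The list mean stood 0.25, 0.24, 0.09 and −0.03 log2 from the lean mean in obese replicates 1 to 4, with the lean arrays 0.07 to either side. Sparcl1, a matrix-associated glycoprotein, was 0.59 ± 0.18 log2 higher and Lox, which crosslinks collagen, 0.44 ± 0.14. The proteoglycan genes Dcn and Bgn gave larger values, 0.74 ± 0.36 and 0.66 ± 0.35 log2, but their groups overlapped, with Dcn at 8.97, 9.05, 8.55 and 7.83 against 8.31 and 7.42.

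Macrophage and immune genes gave no call either. None of the 29 macrophage genes passed and none had separate groups, and their median difference was 0.08 log2, or 0.06 without obese replicate 1 and 0.16 without lean replicate 1. The macrophage list mean stood 0.27, 0.19, 0.09 and −0.08 log2 from the lean mean in obese replicates 1 to 4, and 0.10 to either side in the lean arrays. Lysozyme, Lyz2, read 8.95, 8.77, 8.66 and 7.80 against 8.60 and 7.63, and its difference of 0.43 log2 turned to −0.06 without lean replicate 2. The lysosomal protease gene Ctss differed by 0.43 ± 0.27 and Lgals3, a galectin of macrophages, by 0.39 ± 0.17 log2. In the interferon response list 2 of 21 genes lay above the lean values (9.52%), a share near the 7.7% of all genes. They were Psmb8, a subunit of the immunoproteasome, with 6.94, 7.21, 6.89 and 6.83 against 6.49 and 6.34 (0.55 ± 0.11 log2, limma adjusted p = 0.744), and Ifi27 (0.42 ± 0.13). The antigen-presentation gene B2m differed by 0.36 ± 0.19 log2 with overlap, and this turned to −0.01 without lean replicate 2. For 36 genes of inflammation and cytokines the median difference was 0.02 log2, from −0.02 without obese replicate 2 to 0.05 without lean replicate 1. Of these, 5 lay above (13.9%, against 7.7% of all genes) and 1 below (2.78%, against 7.27%).

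**Figure D4:**
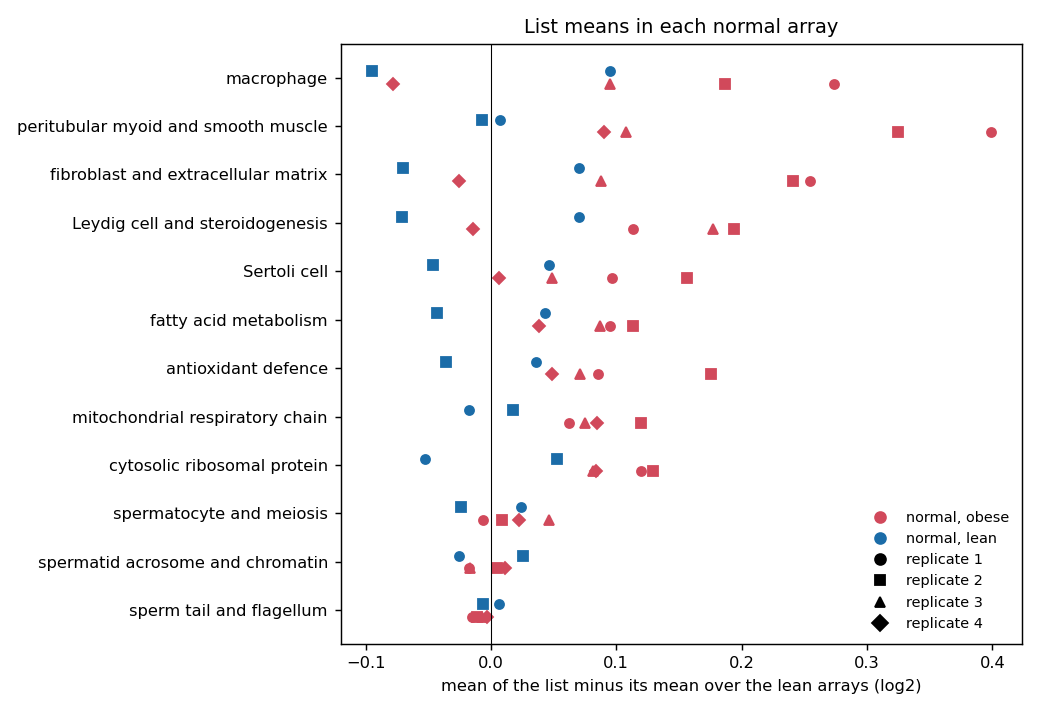
Mean of each of 12 gene lists in each normal array, as the difference in log2 from the mean of the lean arrays (horizontal axis), with obese arrays in red and lean arrays in blue and a marker per replicate. Obese replicates 1 and 2 lie to the right for smooth muscle, matrix and macrophage lists (0.40 and 0.32 for smooth muscle), whereas all arrays lie within 0.05 of 0 for the 3 later germ cell lists.

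The 12 list means showed that obese replicates 1 and 2 carried the higher levels of macrophage, smooth muscle and matrix genes, and that obese replicate 4 lay within the range of the lean arrays for macrophage, matrix, Leydig and Sertoli genes. Kremen1 was highest in replicates 3 and 4. The means of the spermatocyte list stood −0.01, 0.01, 0.05 and 0.02 log2 from the lean mean in obese replicates 1 to 4. The lean arrays lay 0.02 to either side, and only obese replicate 3 stood outside their range. In the under-developed testes, replicates 1 to 3 read far higher for Timp1 (12.49, 11.85 and 12.38) and Dcn (11.64, 10.52 and 11.30) than any normal testis. Those values stood beside Kremen1 at 6.10, 8.17 and 6.85 in the same arrays, below all 4 normal testes of obese rats. Markers of other cell types differed little. The median difference was 0.00 log2 for 17 epididymis genes, 0.00 for 14 adipocyte genes, −0.01 for 16 endothelial genes, 0.01 for 9 mast cell genes, −0.03 for 17 lymphocyte genes and 0.06 for 6 red blood cell genes, with 0 calls in each. Each of these 6 medians changed sign under at least 1 alternative setting besides the ribosomal centring described below.

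Genes of leptin and insulin signalling gave 0 calls among 34 measured. Of these, 4 lay above the lean values (11.8%, against 7.7% of all genes) and 0 below (against 7.27%). The list's median difference was 0.05 log2, from 0.01 without lean replicate 2 to 0.08 without lean replicate 1. Stat3, which carries the leptin signal to the nucleus, read 7.82, 8.02, 7.76 and 7.56 against 7.58 and 7.26, a difference of 0.37 ± 0.14 log2 with overlap. Slc2a4, the insulin-responsive glucose transporter, read 6.45, 6.30, 6.37 and 6.36 against 6.08 and 6.16, a difference of 0.25 ± 0.07 log2 (limma adjusted p = 0.744). The adiponectin receptor gene Adipor1 differed by 0.17 ± 0.08 log2, leptin itself, Lep, by −0.15 ± 0.09, and the insulin receptor substrate gene Irs1 by −0.18 ± 0.13. Lep read 4.73 to 5.04 log2, near the lower quartile of the arrays.

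Of 41 genes of fatty acid metabolism, 6 lay above the lean values (14.6%, against 7.7% of all genes) and 2 below (4.88%, against 7.27%). None was called. The median difference was 0.05 log2, from 0.03 without lean replicate 2 to 0.08 without lean replicate 1. Pdk4, which turns glucose away from oxidation when fat is burned, read 6.86, 7.13, 7.12 and 6.89 against 6.54 and 6.29, a difference of 0.58 ± 0.11 log2 (limma adjusted p = 0.744). Cpt1a, the gatekeeper of fatty acid entry into mitochondria, read 7.72, 7.65, 7.61 and 7.58 against 7.50 and 7.26 (0.26 ± 0.09 log2). Angptl4, an inhibitor of lipoprotein lipase, differed by 0.27 ± 0.14 log2, and its lowest obese value of 6.37 was 0.03 above the highest lean value. Acacb, whose product malonyl-CoA restrains Cpt1a, lay on the other side, with 6.72, 6.74, 6.88 and 6.90 against a lean mean of 7.05 ± 0.07 (SD, n = 2) and a difference of −0.24 ± 0.08 log2. Of 26 genes of cholesterol synthesis and uptake, 1 lay above and 1 below the lean values (3.85% each). The cholesterol exporter gene Abca1 was 0.23 ± 0.07 log2 higher, with 7.52, 7.55, 7.60 and 7.63 against 7.39 and 7.30, and the sterol synthesis gene Msmo1 differed by 0.30 ± 0.15 with overlap.

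Genes of ribosomes, of the respiratory chain and of antioxidant defence had, together with the smooth muscle genes, the largest shares of members above the lean values among the 28 lists. None of them passed. Of 54 measured ribosomal protein genes, 16 lay above (29.6%) and 0 below, and their median difference was 0.09 log2. That median was 0.05 without lean replicate 1 and 0.15 without lean replicate 2. Rpl10 read 7.86, 8.05, 8.10 and 7.76 against 7.63 and 7.38 (0.43 ± 0.12 log2), and Rpl29, Rpl3 and Rpl13a differed by 0.31 ± 0.11, 0.25 ± 0.09 and 0.19 ± 0.07. Ribosomal protein genes have many processed copies in the genome that can share probes.

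Of 34 respiratory chain genes, 12 lay above the lean values (35.3%) and 0 below, with a median difference of 0.09 log2, or 0.07 without lean replicate 1 and 0.14 without lean replicate 2. Subunits of complex I gave 0.37 ± 0.12 (Ndufa2), 0.26 ± 0.10 (Ndufb3) and 0.24 ± 0.08 (Ndufb8), with Ndufb8 at 8.65, 8.77, 8.65 and 8.55 against 8.41 and 8.43. The complex IV subunit gene Cox6b1 differed by −0.37 ± 0.15 log2, with overlap. Of 37 antioxidant genes, 9 lay above (24.3%) and 0 below. The glutathione transferase gene Gsta1 read 10.05, 10.26, 10.30 and 9.99 against 9.74 and 9.59, a difference of 0.49 ± 0.11 log2 (limma adjusted p = 0.744). Thioredoxin, Txn1, was 0.46 ± 0.13 and the mitochondrial superoxide dismutase gene Sod2 0.20 ± 0.07 log2 higher. Catalase, Cat, differed by 0.36 ± 0.35 log2, which turned to −0.27 without lean replicate 2. These lists hold brighter genes, whose deciles of level also read slightly higher in the obese arrays, and the part of that shift in the counts was not tested.

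**Figure D5:**
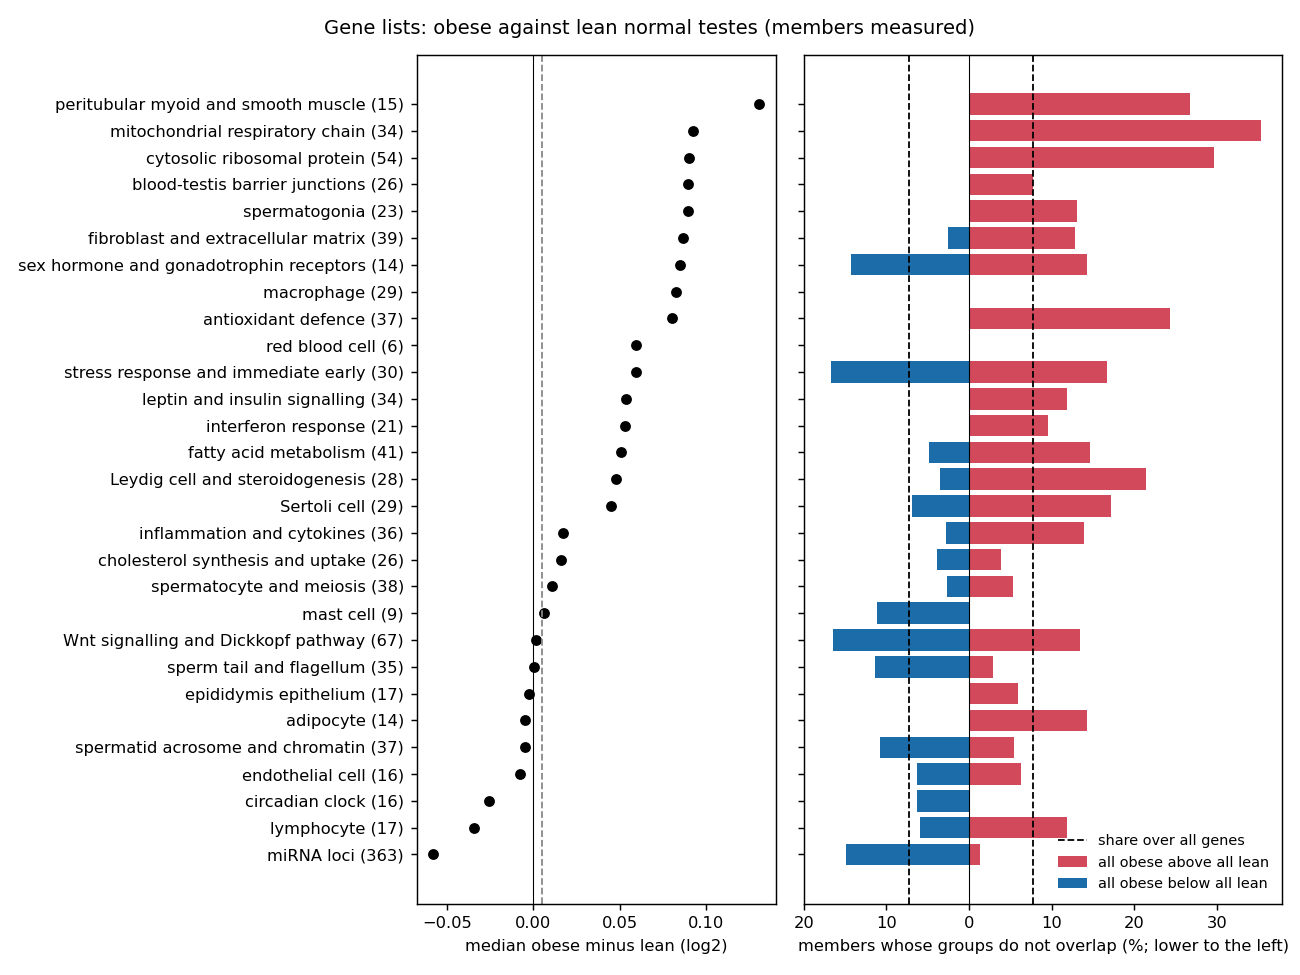
Median difference of obese from lean testes in log2 for 28 gene lists and the 363 microRNA loci (left) and percent of measured members whose 4 obese values all lie above or all below both lean values (right), with dashed lines for all 18166 genes. Respiratory chain, ribosomal, smooth muscle and antioxidant genes have the largest shares above (35.3%, 29.6%, 26.7% and 24.3%) against 7.7% of all genes, and centring the arrays on ribosomal protein genes would move all medians down by the same amount, most of them below 0.

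The signs of small list differences hold for the deposited scale. Centring each array on its ribosomal protein genes moved the median of all genes from 0.01 to −0.10 log2, and with it every gene by the same amount. Small differences above 0, of lists and of single genes, therefore turn negative on that scale by construction. The distance of each list from the median of all genes is the same on both scales.

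Of 30 stress and early-response genes, 5 lay above the lean values and 5 below (16.7% each, against 7.7% and 7.27% of all genes), with no call. Fosb, an immediate early transcription factor, read 6.46, 6.47, 6.53 and 6.50 against 6.89 and 6.71 (−0.31 ± 0.08 log2), and the clock gene Per1 differed by −0.29 ± 0.12. Txnip, a glucose-responsive inhibitor of thioredoxin, was 0.41 ± 0.15 log2 higher with overlap. Among 16 circadian clock genes none lay above (against 7.7% of all genes) and 1 lay below (6.25%, a share near the 7.27% of all genes).

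Of 363 microRNA loci 0 passed, and those with the smallest p-values read lower in the obese testes. MicroRNAs are short RNAs that bind messenger RNAs through a seed, bases 2 to 8 of the mature strand, and reduce their translation or stability. The arrays read the locus, including the precursor, and not a mature arm. The 4 microRNAs with the smallest p-values and a lower level in obese testes are shown with both mature strands, to show which seeds those loci carry. The sequences are those of RefSeq on GRCr8, where 352 of the 363 loci matched by name. The seed is in capitals.
rno-miR-29c-5p: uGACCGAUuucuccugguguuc
rno-miR-29c-3p: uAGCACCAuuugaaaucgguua
rno-miR-93-5p: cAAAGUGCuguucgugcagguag
rno-miR-93-3p: aCUGCUGAgcuagcacuucccga
rno-miR-140-5p: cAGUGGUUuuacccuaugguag
rno-miR-140-3p: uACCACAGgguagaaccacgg
rno-miR-872-5p: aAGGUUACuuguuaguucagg
rno-miR-872-3p: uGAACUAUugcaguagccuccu

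In GRCr8 the 3p strand of Mir29c lies at chr13:109099412-109099433 on the plus strand and the 5p strand of Mir93 at chr12:22156894-22156916 on the minus strand. The 5p strand of Mir140 lies at chr19:52375314-52375335 and that of Mir872 at chr5:114654833-114654853, both on the plus strand.

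Mir29c read 5.23, 4.96, 5.33 and 5.20 in the obese testes and 5.78 and 5.96 in the lean testes. The groups were separate, and the difference was −0.69 ± 0.11 log2 (limma adjusted p = 0.744). Its 3p seed, AGCACCA, is shared by Mir29a, Mir29b1 and Mir29b2, a family known to bind messenger RNAs of collagens and other matrix proteins. Those loci differed by −0.19 ± 0.10, −0.06 ± 0.10 and −0.47 ± 0.20 log2. The values of all 4 loci were below 0, as were those of 247 of the 363 microRNA loci. Mir29a, Mir29b1 and Mir29b2, at 2.58 to 4.76 log2, read below the lower quartile of every normal array.

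Mir93 read 5.60, 5.69, 5.71 and 5.66 against a lean mean of 6.04 ± 0.06 (SD, n = 2), a difference of −0.37 ± 0.07 log2 (limma adjusted p = 0.744). Its 5p seed, AAAGUGC, is shared by 5 other loci. These gave −0.09 ± 0.12 (Mir106a), −0.09 ± 0.07 (Mir106b), 0.09 ± 0.18 (Mir17), 0.06 ± 0.10 (Mir20a) and −0.14 ± 0.09 log2 (Mir20b). Mir106a, Mir17 and Mir20a lay less than their SE from 0, so a direction of that family could not be read. Mir140, best known from cartilage, read 4.66, 4.65, 4.64 and 4.71 against 5.10 and 4.94 (−0.36 ± 0.07 log2). Its obese values lay below the lower quartile of the obese arrays, 4.81 to 4.88 log2. Mir872 read 5.29, 4.98, 5.53 and 5.55 against 6.35 and 5.87 (−0.77 ± 0.19 log2). In the under-developed testes Mir29c read 5.82, 5.72, 6.51 and 5.76, and Mir872 read 5.33, 5.11, 5.50 and 6.43.

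Over all 363 loci, 54 lay below the lean values without overlap (14.9%, against 7.27% of all genes) and 5 above (1.38%, against 7.7%). The unadjusted limma p was under 0.05 for 37 lower and 1 higher locus, and the median difference was −0.06 log2. Of the loci, 313 fell in the 4 dimmest deciles of level, where other genes also read lower. Within a decile, the medians of microRNA loci and of other genes were −0.04 and −0.03 log2 in the dimmest, −0.08 and −0.04 in the second, −0.15 and −0.03 in the third and −0.10 and −0.02 in the fourth. The shares below the lean values were 7.65% of the 170 loci and 8.2% of other genes in the dimmest decile, so no excess was seen there. They were 17.7% of 79 loci and 10.5% of other genes in the second, 27.8% of 36 and 9.04% in the third, and 21.4% of 28 and 8.6% in the fourth. The part of probe length, of sequence content or of RNA quality in this was not tested.

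Some genes varied widely within the normal testes of obese rats, so that no difference from the lean testes could be read. P4ha3, a collagen prolyl hydroxylase subunit, read 7.77, 5.65, 5.41 and 5.48 in the obese testes and 5.63 and 5.51 in the lean testes. It was thus high in obese replicate 1 alone among the normal testes, and in the under-developed testes it was high in replicate 4 alone, at 8.10. Pld5, a gene of the phospholipase D family, varied in both groups, with 7.98, 6.32, 8.62 and 6.54 against 8.82 and 6.33. Tc2n, a C2-domain protein, read 9.56 in obese replicate 2 and 11.12, 10.99 and 11.17 in the others, against 11.48 and 10.78. For P4ha3, Pld5 and Tc2n the differences were 0.51 ± 0.61, −0.21 ± 0.80 and −0.42 ± 0.44 log2. Without obese replicate 1 the P4ha3 difference was −0.05 log2, and that of Pld5 was 1.03 log2 without lean replicate 1.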

How the data were processed

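RNA of whole testes was measured on Affymetrix rat arrays, 1 array per sample, after Trizol extraction and labelling with the WT PLUS kit, per the labels' protocols. The log2 expression values deposited by the authors came from RMA, as the submitters' processing notes say. RMA equalises the distributions of the arrays, and neither its settings nor a genome build is given in the sources used here. Values ran from 2.28 to 14.04 log2, and the number of arrays limits the precision.

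Of 36685 probe sets, 18511 carried 1 gene symbol, 575 several and 17599 none. Symbols were updated by gene number to RefSeq names of GRCr8 (18394 matched). Of 291 genes with several probe sets the brightest was used, giving 18166 genes, unfiltered. Groups came from the titles. The 4 obese and 2 lean arrays were fitted alone with limma 3.58.1 in R 4.3.3 (lmFit, eBayes, Benjamini-Hochberg over all genes), checked on simulated data. Summaries used pandas 2.3.3 and numpy 2.4.6 in Python 3.11.15, the permutation test scipy 1.17.1, and the plots matplotlib 3.10.9. Groups are called separate, or without overlap, where all 4 obese values lie on the same side of both lean values, and ± after a difference is its SE.

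The members and the 28 gene lists were chosen with earlier results of these data known. Named genes were those past the threshold, the 8 largest non-overlapping differences and the 5 smallest p-values in each direction (unnamed loci, microRNA, olfactory and vomeronasal receptor genes left out, by platform or updated symbol), the 3 largest differences in each list, and 32 chosen genes, of which the text gives a selection. MicroRNA loci, neighbours of Kremen1, the genes of wide spread and some further list members were chosen after their values were seen. The alternatives were other centring or normalization, an offset, filters on dim genes, other handling of probe sets, other moderation, array weights, all arrays, a replicate block and leaving out each array.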

Additional observations from a re-analysis of the deposited data

Results flagged for a closer look

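In the normal testes of obese rats, 2 of 109 genes looked at had an array far from the other 3, and 0 of 29 lists did. P4ha3 read 7.77 in obese replicate 1, and the nearest other value was 5.65, so that the gap took 0.897 of the range. Tc2n read 9.56 in obese replicate 2, and the nearest other value was 10.99, a gap of 0.892 of the range. Chance alone gives such a gap in about 5% of groups taken without regard to their values. P4ha3 and Tc2n were named for their wide spread in these same arrays, so that rate does not apply to them.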

How the results depend on the processing

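Kremen1 was called in 12 of 18 alternatives and its difference kept its sign in all. The sign was fixed beforehand where 1 array was left out, or where only the spread or the tested genes changed. Limma called 0 genes, Kremen1 included, with all 10 arrays in the fit (Kremen1 difference 3.26, adjusted p 1.00; 80 genes at an unadjusted p under 0.05), with every probe set (3.26, adjusted p 0.116; 2399) and with trend and robust moderation (3.26, adjusted p 0.126; 1158). Leaving out 1 array in turn gave 0 to 1 called genes and Kremen1 differences of 3.12 to 3.39. Of 109 genes checked, 13 changed sign in some setting. Dkkl1 gave −0.0059 log2 with median centring, −0.0119 with quantile normalization, −0.0935 with ribosomal centring and −0.0153 with the replicate block. Dkk4 gave −0.0780 with ribosomal centring and −0.0035 with the block, and Lrp5 and Lrp6 gave 0.0475 and 0.0294 with the block. With 1 array left out, the differences ran from −0.0121 to 0.0324 for Dkkl1, −0.154 to 0.205 for Dkk4, −0.145 to 0.0498 for Lrp5, −0.108 to 0.0483 for Lrp6, −0.0884 to 0.0137 for Kremen2 and −0.134 to 0.0343 for Dkk1. They ran from −0.521 to 0.107 for Star, −0.227 to 0.712 for Cyp17a1, −0.0053 to 0.732 for B2m, −0.0602 to 0.911 for Lyz2, −0.266 to 0.992 for Cat, −0.0539 to 0.734 for P4ha3 and −1.46 to 1.03 for Pld5. The causes were not tested. Whether replicate numbers pair the samples was not settled. Deviations of same-numbered arrays from their group mean correlated at 0.135 and −0.056. The deviations of 2 lean arrays mirror each other, so these values cannot show or exclude pairing. The replicate block gave 1 called gene, Kremen1, at 2.92 log2 (limma adjusted p 0.0129). It gave 1724 genes at an unadjusted p under 0.05, a count that does not compare with the 1141 of the main fit. Obese replicates 3 and 4 have no lean array of their number, so the block difference rests on replicates 1 and 2 alone. Little is then left to estimate the spread, and the sign of Kremen1 was fixed beforehand there too. Ribosomal centring moves all genes alike, so small list medians cross 0 by construction. Filters on dim genes left out the dimmest genes named. With 2 lean arrays, every difference rests on both of them.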

Other observations

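Probe sets that carry no gene symbol in the platform annotation stand outside the gene tests. Over all 36685 probe sets, 12 were at least 1 log2 higher and 44 at least 1 log2 lower in the obese testes. The unnamed probe set 17868890 read 6.67, 6.47, 6.58 and 6.50 in the obese testes and 7.83 and 8.02 in the lean testes, a difference of −1.37 log2 with a limma adjusted p of 0.116 over all probe sets. Its limma p of 3.73e-06 was the smallest of all probe sets, ahead of Kremen1 at 6.35e-06. Kremen1 was thus first among the named genes but not among all probe sets, and neither passed there. The unnamed probe set 17868175 differed by −2.12 log2.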
